A study of Mus musculus with 24 samples.

Results

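TRBV19 is the mouse V segment long known as Vβ6, and the T cells that carry it were followed through 24 tumors. Members were all TCRβ sequences assigned to TRBV19 (any allele), without a stop mark and with a count of at least 2, in the TCRβ tables of all tumors. This gave 5171 of 75357 sequences. A clonotype was defined by its CDR3 amino acid sequence together with its V and J segment, and 3734 of 47705 clonotypes were TRBV19. No entry carried an allele suffix.

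The T cells had entered tumors of CT26, a colon carcinoma line of BALB/c mice, here as the CT26.CL25 clone, which expresses bacterial β-galactosidase. Female BALB/c mice carried a tumor in each flank, and RNA of the whole tumor was used, so that more T cells and more receptor RNA per cell cannot be told apart. The labels call the cell type colon cancer cells, but TCRβ is a T cell product and every table held it. Both tumors of mice 6, 12 and 14 were taken on day 13 without treatment (time-matched). In the other 9 mice 1 tumor was removed by surgery on day 9 and the other was taken on day 20, an interval of 11 days (time-separated). For the surgery these 9 mice were anesthetized and given the analgesics carprofen and buprenorphine, which are not described for the time-matched mice. Mice 4, 17 and 19 received no decitabine (DAC), a DNA methyltransferase inhibitor, and are called untreated below. Mice 3, 11 and 20 received it at 0.5 mg/kg (low dose), and mice 7, 10 and 16 at 2 mg/kg (high dose), on consecutive days. DAC began 3 days after the surgery, so 1 tumor of every DAC mouse was taken before any drug. The labels number the tumors without saying which was taken first, so tumor 2 minus tumor 1 is a difference between labels, not a known order in time, and which tumor of a DAC mouse had met the drug is not known from them. Each tumor gave 1 library, and the totals retained ran from 63291 to 887567 counts with a median of 206448. The time-matched libraries were deep (375898 to 610800 counts) and the low-dose libraries shallow (63291 to 199081 counts).

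The TCRβ chain is joined from a V, a D and a J segment, and the join forms CDR3, the loop that mostly touches the peptide on the MHC molecule. The V segment encodes the first residues of CDR3 and the other loops, which mostly touch the MHC molecule itself. Vβ6 is known for its reaction with the viral superantigen Mls-1a, which deletes Vβ6 cells from mice that carry it. BALB/c mice lack it and keep their Vβ6 cells.

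A recurring CDR3 pattern was found among the TRBV19 sequences. It has 15 residues and joins TRBV19 to TRBJ2-1. After CASS come any residue, then arginine or lysine, any residue, glycine, any residue and YAEQFF, the usual end of TRBJ2-1. The pattern was noticed among the largest clonotypes, so its values are a description and no test was made on it. The sequences of its largest clonotype in each mouse are shown because mice reached much the same protein with different DNA. Each line gives the residues after CASS and then the CDR3 nucleotides, with capitals marking bases 16 to 27 (residues 6 to 9, counted from the first cysteine).
mouse 6, time-matched, TRTGGYAEQFF: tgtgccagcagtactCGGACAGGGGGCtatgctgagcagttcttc
mouse 12, time-matched, IKTGGYAEQFF: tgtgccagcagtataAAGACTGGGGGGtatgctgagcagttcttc
mouse 14, time-matched, IKTGGYAEQFF: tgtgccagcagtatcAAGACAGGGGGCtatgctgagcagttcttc
mouse 4, time-separated, IKLGGYAEQFF: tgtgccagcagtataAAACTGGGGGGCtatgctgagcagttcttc
mouse 17, time-separated, ARTGGYAEQFF: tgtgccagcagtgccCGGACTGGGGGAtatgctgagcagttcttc
mouse 19, time-separated, TRTGGYAEQFF: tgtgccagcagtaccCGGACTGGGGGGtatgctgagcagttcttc
mouse 3, low-dose DAC, IKLGAYAEQFF: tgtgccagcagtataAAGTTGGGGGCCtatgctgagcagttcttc
mouse 11, low-dose DAC, SRTGGYAEQFF: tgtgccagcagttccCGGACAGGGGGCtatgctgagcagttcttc
mouse 20, low-dose DAC, IKTGGYAEQFF: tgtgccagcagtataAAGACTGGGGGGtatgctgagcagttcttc
mouse 7, high-dose DAC, IKTGGYAEQFF: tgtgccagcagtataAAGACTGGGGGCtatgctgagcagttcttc
mouse 10, high-dose DAC, IKLGGYAEQFF: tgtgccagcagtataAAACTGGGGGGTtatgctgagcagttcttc
mouse 16, high-dose DAC, IRLGGYAEQFF: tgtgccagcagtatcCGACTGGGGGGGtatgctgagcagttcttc
The nucleotides were the same in mouse 12 and mouse 20 and differed between all other mice shown. The start tgtgccagcagtat, the longest start shared in this way, stood in 40.5% of 2941 TRBV19 sequences and was read from the data. The runs of G in the capitals are of the kind that the short D segments bring to the middle of CDR3.

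The pattern was found in 12 of 12 mice and in 21 of 24 tumors. Sequences that lay 1 nucleotide from a sequence with at least 20 times their count in the same tumor were merged into it before its forms were counted. There were then 28 clonotypes of the pattern and 56 nucleotide sequences, of which 51 were found in a single mouse and 5 in more. Among the sequences with at least 1% of the TRBV19 counts of their tumor, 27 nucleotide sequences encoded 12 clonotypes in 12 mice, and 1 of the 27 reached this level in more than 1 mouse. Mouse 10 held 7 such sequences, the most of any mouse. Its form IKLGGYAEQFF was encoded there by unlike sequences that were both large, at 39.4% and 27.8% of the TRBV19 counts of tumor 2.
mouse 10, 39.4%: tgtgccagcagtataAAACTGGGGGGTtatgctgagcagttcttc
mouse 10, 27.8%: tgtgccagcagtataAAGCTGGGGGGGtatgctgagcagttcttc
 Over the 54 pairs of mouse and clonotype, of which mouse 3 gave 12 and mouse 10 gave 10, residue 6 was lysine in 27 and arginine in 27. Residue 7 was leucine in 21 and threonine in 20, residue 5 isoleucine in 29, and residue 9 glycine in 41.

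Some nucleotide sequences were the same in several mice. Of 4373 distinct TRBV19 nucleotide sequences, 89 (2.04%) were found in at least 2 mice. The sequence of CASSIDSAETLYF, a large TRBJ2-3 clonotype of mouse 12, had 27315 and 35885 counts in mouse 12 and 2173 and 278 in mouse 3, in tumors 1 and 2. That of the IKLGA form of the pattern had 4891 and 10089 counts in mouse 3, 2 and 13 in mouse 11, 10 in tumor 2 of mouse 20 and 2 in tumor 1 of mouse 4. Whether equal sequences arose independently or passed between libraries was not tested. Copies with at least 10 times their count in another mouse came to 38 TRBV19 sequences in 13 tumors. They held 18.4% of the TRBV19 counts of tumor 1 of mouse 3 and at most 2.35% of those of any other tumor. Without such copies the pattern was still found in 12 mice and 21 tumors. Without them the group and tumor comparisons of TRBV19 shares and overlap, the J segments called, CDR3 length and the ratio of shares kept their direction and call. The correlation with other V segments, the clonotypes shared between mice and the pattern's share with other V segments were not computed without them.

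The share of all TCRβ counts held by the TRBV19 pattern ranged from 0 to 17.1% of a tumor. In the time-matched mice it was 0.184% and 0.287% (mouse 6), 0.255% and 0.249% (mouse 12) and 0.103% and 0.145% (mouse 14) in tumors 1 and 2. In the untreated time-separated mice it was 0.0259% and 0.266% (mouse 4), 0.319% and 1.49% (mouse 17) and 0.0235% and 0.13% (mouse 19). In the low-dose DAC mice it was 2.80% and 17.1% (mouse 3), 5.42% and 6.70% (mouse 11) and 0 and 0.977% (mouse 20). In the high-dose DAC mice it was 0 and 0.0374% (mouse 7), 2.47% and 4.61% (mouse 10) and 0.0117% and 0 (mouse 16). The mice with the highest values, 3, 11 and 10, were DAC mice, in which 1 of the listed tumors preceded the drug. The other 3 DAC mice held at most 0.977%, and the highest untreated tumor held 1.49%. Whether DAC played a part was not tested. The share was higher in tumor 2 than in tumor 1 in 10 of 12 mice, and in 8 of the 9 time-separated mice. Its median was 0.143% in tumor 1 and 0.276% in tumor 2.

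**Figure D1:**
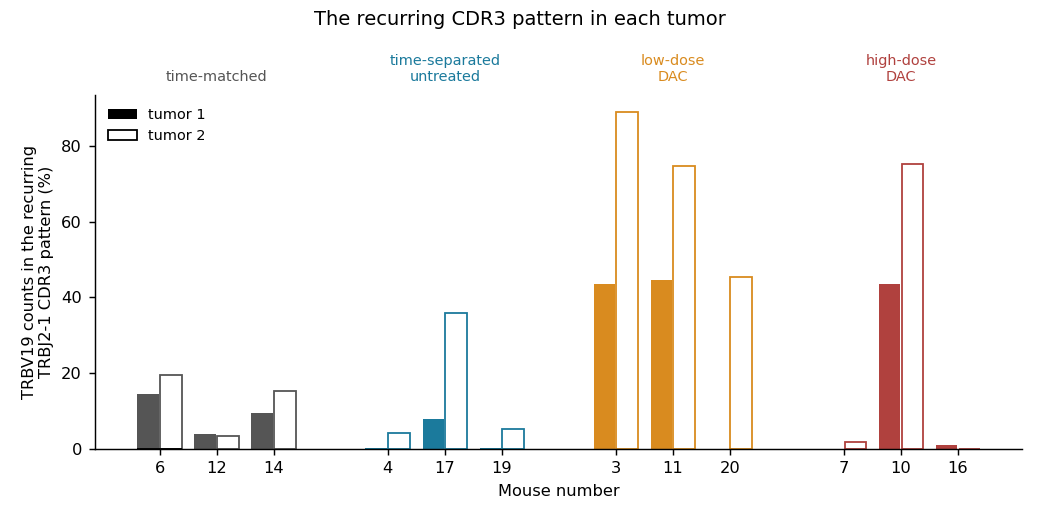
The share of TRBV19 counts (vertical axis, percent) that belonged to the recurring TRBJ2-1 pattern is drawn for each tumor, with filled bars for tumor 1 and open bars for tumor 2, by mouse number and group. The bars reach 89.0% in tumor 2 of mouse 3, 75.2% in tumor 2 of mouse 10 and 74.6% in tumor 2 of mouse 11, and the tumor 2 bar is the taller one in 10 of 12 mice.

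Within TRBV19 the pattern made up 89.0% of the counts in tumor 2 of mouse 3, 75.2% in tumor 2 of mouse 10 and 74.6% in tumor 2 of mouse 11. In the time-matched tumors it was between 3.47% and 19.4%. Among merged TRBJ2-1 clonotypes counted per mouse, the pattern was in 54 of 489 with TRBV19 (11.0%) and in 43 of 4232 with any other V segment (1.02%). It was noticed among large TRBV19 clonotypes, so a higher rate with TRBV19 is partly built in. Mice 3, 10 and 11 held 12, 10 and 7 of the 54. The 15 residues it needs were present in 45.2% of TRBJ2-1 clonotypes with TRBV19 and 26.8% with other V segments. The pattern was also found with TRBV4, at 5.59% of its TRBJ2-1 clonotypes in 6 mice, and with TRBV29, at 5.04% in 4 mice. Its mean share of all counts was 1.82% with TRBV19, 0.994% with TRBV4 and 1.15% with all other V segments together, and single mice carried these means. Without tumor 2 of mouse 3 it was 1.15% with TRBV19 and 1.17% with the others, and without mouse 10 it was 1.66% and 0.388%. The median over the tumors was 0.252% with TRBV19 and 0.0159% with the others. TRBV19 held more of it than the others together in 15 tumors and less in 8. The others held more in both tumors of mouse 10 (9.62% and 9.40% of all counts) and in tumor 2 of mouse 4 (3.77%) and mouse 20 (2.02%), among others. Other lengths were not searched.

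**Figure D2:**
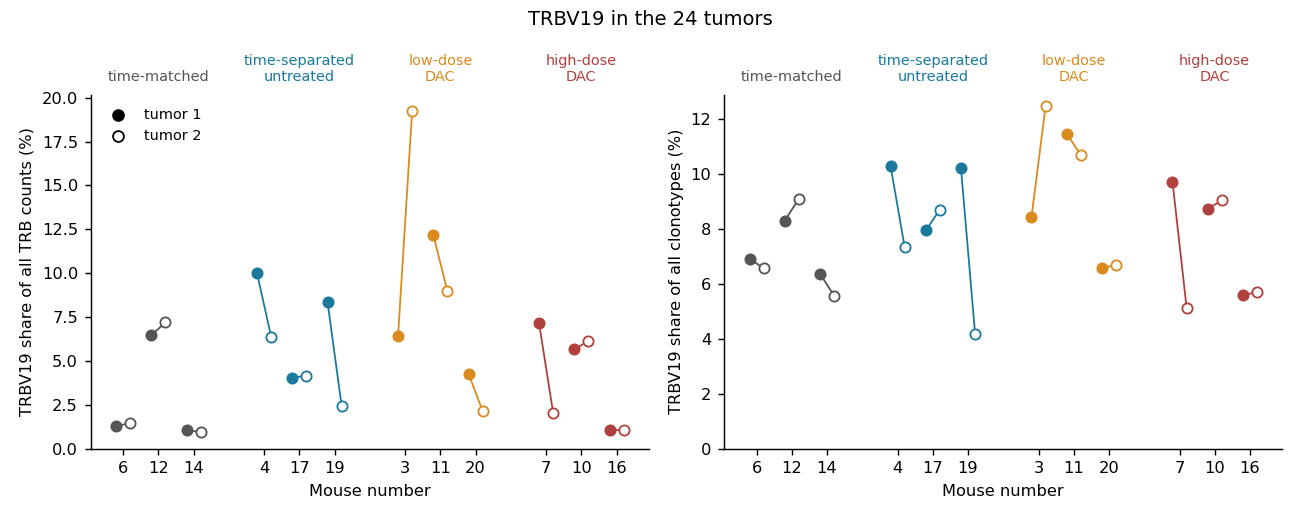
The share of TRBV19 in all TCRβ counts (left, percent) and in all clonotypes (right, percent) is drawn for each tumor by mouse number and group, with filled points for tumor 1, open points for tumor 2 and a line joining the tumors of a mouse. Tumor 2 of mouse 3 lies highest at 19.3% of counts, and the groups overlap in both panels.

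TRBV19 took 5.43% ± 3.74 (SD, n = 12 mice) of the counts and 8.0% ± 1.70 of the clonotypes. Shares of counts used all retained counts, and clonotypes were counted after every library had been thinned to 63291 counts. In the time-matched mice the TRBV19 share of counts was 1.28% and 1.48% (mouse 6), 6.47% and 7.19% (mouse 12) and 1.08% and 0.946% (mouse 14) in tumors 1 and 2. Tumors of the same mouse lay close together here, and mouse 12 stood far above the other two. In the untreated time-separated mice it was 9.98% and 6.38% (mouse 4), 4.05% and 4.16% (mouse 17) and 8.34% and 2.43% (mouse 19). In the low-dose DAC mice the values were 6.45% and 19.3% (mouse 3), 12.2% and 8.97% (mouse 11) and 4.27% and 2.15% (mouse 20). In the high-dose DAC mice they were 7.16% and 2.04% (mouse 7), 5.66% and 6.14% (mouse 10) and 1.08% and 1.06% (mouse 16). The groups overlapped. The widest exact binomial 95% interval (Clopper-Pearson) of these shares was 18.9% to 19.6%, in tumor 2 of mouse 3, and such intervals cover counting error only.

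The thinned number of TRBV19 clonotypes ran from 40 in tumor 2 of mouse 7 to 251 in tumor 1 of the same mouse, and the share of clonotypes from 4.19% (mouse 19, tumor 2) to 12.5% (mouse 3, tumor 2). By mean share of clonotypes TRBV19 was rank 4 of 25 V segments, below TRBV13-2 (13.3% ± 4.14) and above TRBV5 (7.32% ± 1.31). TRBV19 was lower than TRBV13-2 in 11 of 12 mice and higher than TRBV5 in 9 of 12, and its distance to TRBV5 was smaller than the SD of either. By mean share of counts it was also rank 4, with TRBV4 next below it (5.11% ± 4.33, lower than TRBV19 in 7 of 12 mice), followed by TRBV13-3 (4.94% ± 3.35, lower than TRBV19 in 5 of 12). This order by counts rests on tumor 2 of mouse 3, without which TRBV19 was at 4.89% and rank 6, below TRBV4 (5.04%) and TRBV13-3 (5.04%).

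TRBV19 held fewer counts than its clonotype number would give if all clonotypes were of equal size. The log2 ratio of its share of counts to its share of clonotypes averaged -0.99 ± 0.94 (SD, n = 12 mice), was negative in all mice but mouse 3 and differed from 0 (two-sided exact permutation of the signs, p = 0.00146, adjusted p = 0.00264 over 18 V segments). In mouse 3 it was 0.12. Without the largest TRBV19 clonotype of each mouse the mean was -1.84. Leaving it out removes more counts than clonotypes and lowers the ratio by construction. The same test called 83.3% of the V segments (15 of 18), 14 below 0 and 1 above, so TRBV19 shared this with most. Single clonotypes set much of the share of counts. The largest TRBV19 clonotype of a tumor made up from 7.98% (mouse 14, tumor 1) to 84.0% (mouse 12, tumor 1) of the TRBV19 counts.

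The clonotype share of TRBV14 followed that of TRBV19 most closely over the 12 mice (Pearson r = 0.83, permutation p = 0.00069, adjusted p = 0.0166 over 24 segments). Spearman's rho was 0.75 (permutation p = 0.00621, adjusted p = 0.149). Without mice 11 and 3, which lay farthest from the median TRBV19 share, r was 0.58 (permutation p = 0.0827). Leaving out the most extreme mice narrows the range and tends to lower r. This value therefore cannot decide how far the relation rests on them. Among positive correlations TRBV31 (r = 0.50, adjusted p = 0.606) and TRBV16 (r = 0.45, adjusted p = 0.655) came next. Negative ones of larger size were those of TRBV13-1 (r = -0.541) and TRBV10 (r = -0.524), each at a permutation adjusted p of 0.606. All segments of a mouse share its libraries and their shares sum to 100%, and groups of 3 mice are too small for values within a group.

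The group comparisons asked whether the interval between harvests or DAC went with a different TRBV19 level, with 1 value per mouse (the mean of its tumors). For DAC mice this mean includes the tumor taken before the drug. All time-separated mice also had surgery with analgesics, which cannot be told apart from the interval. The share of counts was 3.07% ± 3.26 (SD, n = 3) in time-matched mice, 5.89% ± 2.09 in untreated time-separated mice, 8.88% ± 5.04 with low-dose DAC and 3.86% ± 2.50 with high-dose DAC. The difference between untreated time-separated and time-matched mice was 2.82 percentage points (exact permutation test, two-sided, p = 0.3), and that of all 9 time-separated mice was 3.14 points (p = 0.227, exact permutation test). Low-dose DAC minus untreated gave 2.99 points (exact permutation p = 0.4) and high-dose DAC minus untreated gave -2.04 points (exact permutation p = 0.5). With 3 mice against 3 the smallest possible p was 0.1, and with 3 against 9 it was 0.00455. After adjustment over the segments these p ranged from 0.606 to 0.833. None passed. Without the largest TRBV19 clonotype of each mouse, taken from the total as well, the low-dose difference was 0.14 points. The other segments kept theirs.

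For the share of clonotypes the same 4 differences were 0.98, 1.14, 1.27 and -0.79 percentage points (exact permutation p = 0.3, 0.345, 0.5 and 0.7, adjusted p from 0.664 to 1). After merging of sequences 1 nucleotide apart the first and second were 0.143 and 0.433 points, and without thinning 1.83 and 1.95 points. The fourth changed its sign after merging and also without mouse 16. The same tests on every V segment called 0% of 25 segments in each comparison, for counts and for clonotypes. At an unadjusted p under 0.05 they gave 1 segment in the comparison of all 9 mice for counts and 1 for clonotypes, and 0 in each of the others. edgeR's quasi-likelihood test on the counts per segment also called 0 of 25 segments in each of the 4 comparisons, with 5, 6, 3 and 1 at an unadjusted p under 0.05.

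Between the tumors of a mouse TRBV19 differed in both directions. In the 9 time-separated mice, the share of counts was higher in tumor 2 in 3 and lower in 6, with a mean difference of -0.73 percentage points (SD 5.57, exact sign-flip permutation p = 0.762, adjusted p = 0.928). Without the largest clonotype of each mouse it was -1.69 points (exact sign-flip permutation p = 0.0469, adjusted p = 0.167), a setting in which the same test called 5 of 25 segments, TRBV19 not among them. The extremes were 12.8 points in mouse 3 and -5.91 points in mouse 19. For the share of clonotypes the mean difference was -1.0 points (SD 3.06, exact sign-flip permutation p = 0.371, adjusted p = 0.580). The share of counts called 0% of 25 segments here (5 at an unadjusted p under 0.05), and the share of clonotypes called 24% (6 of 25), among which TRBV19 was not. The size of the difference, as the absolute log2 ratio of the shares, was between 0.15 and 0.21 in the time-matched mice and between 0.03 and 1.81 in the 9 time-separated mice. The groups overlapped, and the difference of their means was 0.64 (exact permutation p = 0.209, adjusted p = 0.314, with 0% of 18 segments called and 2 at an unadjusted p under 0.05).

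**Figure D3:**
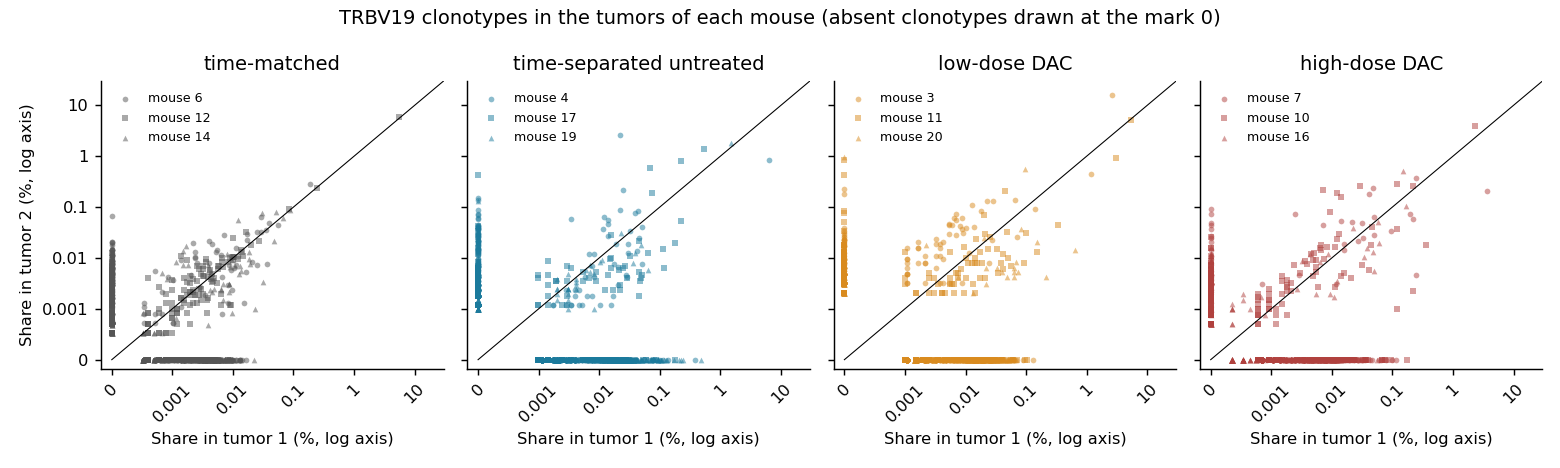
Each point is a TRBV19 clonotype of a mouse, with its share of all TCRβ counts in tumor 1 (horizontal) and tumor 2 (vertical), both in percent on log axes, 1 panel per group and 1 symbol per mouse. Clonotypes absent from a tumor are drawn at the mark 0, the line marks equal shares, and the largest clonotypes lie near the line in the time-matched panel and away from it in several time-separated mice.

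The overlap of TRBV19 clonotypes between the tumors of a mouse was measured with the Morisita-Horn index, which is 1 for equal shares and 0 for no shared clonotype. It was 0.838, 1.00 and 0.698 in the time-matched mice 6, 12 and 14. It was 0.283, 0.552 and 0.434 in the untreated time-separated mice 4, 17 and 19, all below the time-matched values. It was 0.767, 0.911 and 0.0519 with low-dose DAC (mice 3, 11 and 20) and 0.357, 0.886 and 0.563 with high-dose DAC (mice 7, 10 and 16), and these values overlapped with both. The difference between untreated time-separated and time-matched mice was -0.42 (exact permutation p = 0.1, the smallest possible, adjusted p = 0.283), and that of all 9 time-separated mice was -0.31 (exact permutation p = 0.109, adjusted p = 0.309). Of 17 V segments, 0% passed in either comparison, and 0 and 2 had an unadjusted p under 0.05.

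**Figure D4:**
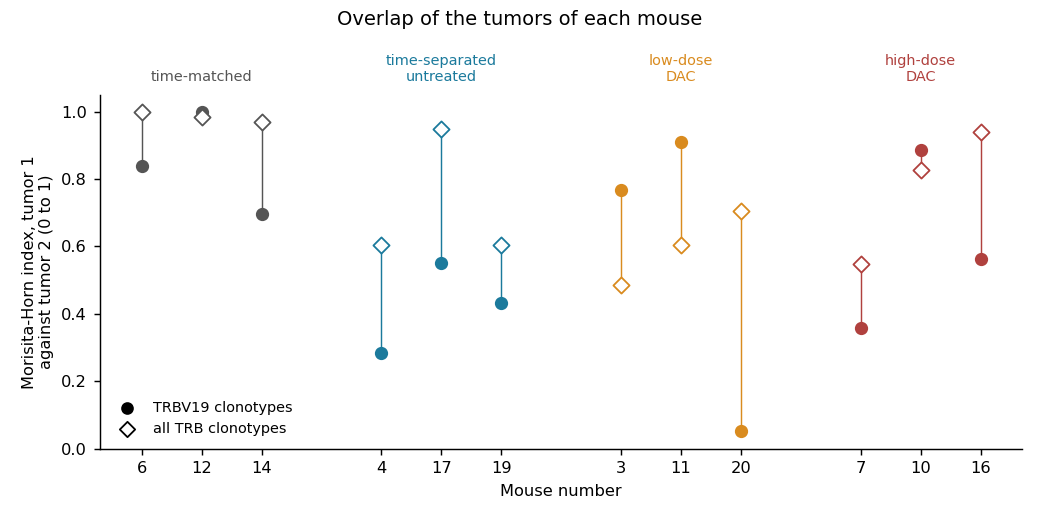
The Morisita-Horn index between the tumors of each mouse (vertical axis, 0 to 1) is drawn for TRBV19 clonotypes (filled circles) and for all TCRβ clonotypes (open diamonds), by mouse number and group. TRBV19 lies above all clonotypes in mice 3, 11, 10 and 12 and below them in the other mice, lowest in mouse 20 at 0.0519.

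Over all V segments together the index was 0.486 in mouse 3 and 0.605 in mouse 11, where TRBV19 was higher. In mouse 20 it was 0.705 for all clonotypes and 0.0519 for TRBV19. There the largest TRBV19 clonotype of tumor 2, IKTGGYAEQFF (0.962% of all counts), was absent from tumor 1, at least 432-fold lower against a floor of 3 counts, and the largest of tumor 1, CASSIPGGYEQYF, held 0.651% of all counts there and 0.0145% in tumor 2. Clonotypes seen in a single tumor of their mouse held 31.6% ± 22.3 (SD, n = 3) of TRBV19 counts in time-matched and 37.3% ± 9.52 in untreated time-separated mice (difference 5.69 percentage points, exact permutation p = 0.8). For all 9 time-separated mice it was 32.1% ± 14.6 (difference 0.51 points, exact permutation p = 0.959). No segment passed (0% of 17, and 0 at an unadjusted p under 0.05, in each comparison). This share was 5.84% in mouse 12 and 43.5% and 45.4% in mice 6 and 14, and without mouse 12 the differences were -7.19 and -12.4 points. Without the largest clonotype of each mouse they were 15.6 and 3.38 points (exact permutation p = 0.4 and 0.736).

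Of the 10 largest TRBV19 clonotypes of either tumor, 35 of 40 (87.5%) were found in both tumors of the time-matched mice. In the untreated time-separated mice it was 18 of 54 (33.3%), with low-dose DAC 28 of 50 (56.0%) and with high-dose DAC 33 of 46 (71.7%). The same count over 11 other V segments with at least 10 clonotypes in every tumor was 78.9% (358 of 454) in the time-matched mice, 46.4% (253 of 545) in the untreated time-separated mice, 46.9% (258 of 550) with low-dose DAC and 53.3% (279 of 523) with high-dose DAC. TRBV19 lay within the range of those segments in each group, which was 47.8% to 97.4% in the time-matched and 24.1% to 75.6% in the untreated time-separated mice. Of the TRBV19 clonotypes found in both tumors, 5 of 12, 2 of 11 and 8 of 12 differed by more than 2-fold in the time-matched mice 6, 12 and 14. It was 4 of 6, 8 of 9 and 1 of 3 in the untreated time-separated mice 4, 17 and 19, so these groups overlapped. In the low-dose DAC mice 3, 11 and 20 it was 8 of 9, 7 of 8 and 10 of 11, and in the high-dose DAC mice 7, 10 and 16 it was 8 of 10, 10 of 13 and 7 of 10. Libraries differed in depth between the groups, and these counts used all retained counts.

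Large clonotypes differed between the tumors of single mice. The largest excess in tumor 2, in percentage points, was that of CASSIKLGAY with the TRBJ2-1 end, the pattern clonotype of mouse 3 shown above, which held 2.65% of all TCRβ counts in tumor 1 (4931 counts, rank 7 of all clonotypes) and 16.1% in tumor 2 (10202 counts, rank 1). The largest excess in tumor 1 among untreated time-separated mice was that of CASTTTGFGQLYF with TRBJ2-2 in mouse 4, with 6.25% in tumor 1 and 0.840% in tumor 2. In the same mouse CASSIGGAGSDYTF with TRBJ1-2 held 0.0224% in tumor 1 and 2.63% in tumor 2, a 117-fold difference. Among the high-dose DAC mice the largest excess in tumor 1 was that of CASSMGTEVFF with TRBJ1-1 in mouse 7 (3.65% and 0.204% in tumors 1 and 2), and the largest in tumor 2 was that of the IKLGG form of the pattern in mouse 10 (2.29% and 3.92%). Among the low-dose DAC mice the largest excess in tumor 1 was that of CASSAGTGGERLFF with TRBJ1-4 in mouse 11 (3.05% and 0.909%). These clonotypes are shown by their CDR3 nucleotides, with capitals for the bases between the V start and the J end.
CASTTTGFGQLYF: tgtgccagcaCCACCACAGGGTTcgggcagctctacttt
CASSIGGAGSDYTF: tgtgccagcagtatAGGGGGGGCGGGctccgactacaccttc
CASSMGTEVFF: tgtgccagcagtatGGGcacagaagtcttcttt
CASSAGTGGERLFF: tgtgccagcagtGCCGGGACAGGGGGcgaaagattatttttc
The middle part ran from 3 bases in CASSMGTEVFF to 14 in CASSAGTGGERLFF. In the time-matched mice the largest differences were below 1 percentage point. The largest TRBV19 clonotype of that group, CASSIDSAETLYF with TRBJ2-3 in mouse 12, was at 5.43% and 6.00% of all counts and also had the group's largest excess in tumor 2. The largest excess in tumor 1, that of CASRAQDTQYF in mouse 6, was 0.0372% against 0.00771%.

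Among the remaining mice, the largest TRBV19 clonotype carried the pattern in mice 6, 11, 14 and 20. In mouse 16 it was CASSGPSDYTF with TRBJ1-2, at 0.149% and 0.513% of all counts, and in mouse 17 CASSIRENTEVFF with TRBJ1-1, at 0.528% and 1.37%. In mouse 19 it was a 15-residue clonotype with TRBJ2-4 (residues after CASS: PRERSQNTLYF) at 1.48% and 1.84%. In all, the largest clonotype had the pattern in mice 3, 6, 10, 11, 14 and 20.

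Most TRBV19 clonotypes were seen in a single mouse. After merging, 108 of 2695 clonotypes (4.01%) were found in at least 2 mice, close to the 4.37% (1216 of 27832) of the other V segments together. The 2 clonotypes found in 7 mice were the IKTGG form of the pattern, with 5 different main nucleotide sequences, and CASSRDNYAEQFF, also with TRBJ2-1, with 4. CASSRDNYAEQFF stayed small, at no more than 0.0317% of a tumor. The TRTGG form of the pattern, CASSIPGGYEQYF with TRBJ2-7 and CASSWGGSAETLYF with TRBJ2-3 were in 5 mice each, each with 5 different main nucleotide sequences. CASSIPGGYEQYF is shown because mice reached the same protein with different nucleotides, here mice 14, 19 and 20.
mouse 14: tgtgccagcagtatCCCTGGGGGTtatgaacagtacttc
mouse 19: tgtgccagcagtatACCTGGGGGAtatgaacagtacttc
mouse 20: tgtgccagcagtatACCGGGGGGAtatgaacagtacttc

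**Figure D5:**
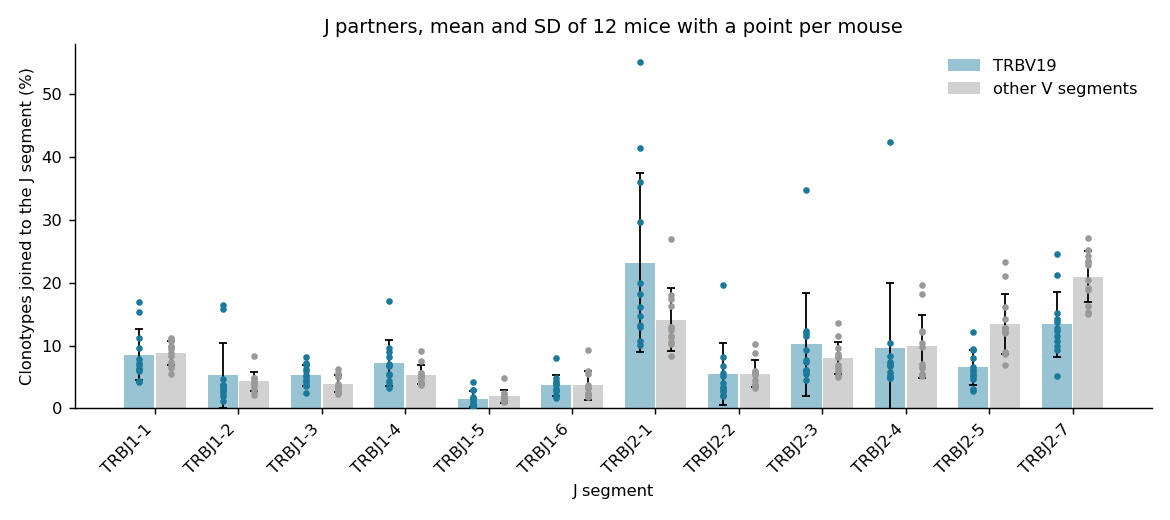
The share of clonotypes joined to each J segment (vertical axis, percent) is drawn for TRBV19 (blue) and for the other V segments together (grey), with bars for the mean of 12 mice, error bars for the SD and a point per mouse. TRBJ2-5 is lower and TRBJ2-1 spreads up to 55.2% in TRBV19.

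Among the J partners of TRBV19, TRBJ2-5 was called lower than with the other V segments together. It was joined to 6.55% ± 2.73 (SD, n = 12 mice) of TRBV19 clonotypes, from 2.83% to 12.1%, and to 13.5% ± 4.80 of the others. The difference of -6.94 percentage points was found in 11 of 12 mice, with mouse 6 the exception (exact sign-flip permutation p = 0.00146, adjusted p = 0.0176 over 204 pairs of V and J segments). Over all pairs the test called 12.3% (25 of 204), 22 lower and 3 higher, and for TRBV19 it called 1 of 12. TRBJ2-5 was also called lower with TRBV4, TRBV15, TRBV17, TRBV20 and TRBV31. Weighted by counts, no J segment of TRBV19 passed.

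TRBJ2-1 was the most used partner, with 23.2% ± 14.3 of TRBV19 clonotypes against 14.1% ± 5.03 of the others. It was higher with TRBV19 in 9 of 12 mice, and the difference of 9.10 points did not pass (exact sign-flip permutation p = 0.0767, adjusted p = 0.241). The highest values were 55.2% in mouse 3, 41.5% in mouse 10 and 36.1% in mouse 11, the mice in which the pattern was largest. After merging of sequences 1 nucleotide apart the mean TRBJ2-1 share was 19.2% ± 8.95, and the highest was 40.2%. By counts TRBJ2-1 held 31.3% ± 24.7 of TRBV19. TRBJ2-7, the most used partner of the other segments (20.9% ± 4.04), was joined to 13.4% ± 5.19 of TRBV19 clonotypes (difference -7.53 points, exact sign-flip permutation p = 0.00977, adjusted p = 0.0766). TRBJ1-5 was used least, at 1.54% ± 1.26.

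TRBV19 CDR3s were slightly longer. Over all retained counts their mean length was 14.0 residues ± 0.285 (SD, n = 12 mice) against 13.7 ± 0.288 with the other V segments. In the thinned libraries the difference was 0.28 residues. It was positive for 10 of the 12 mice (exact permutation of the signs, p = 0.00781, adjusted p = 0.0148), and the test called 70.6% of V segments (12 of 17) in one direction or the other. After merging it was 0.17 residues (adjusted p = 0.0138), and weighted by counts 0.76 residues (adjusted p = 0.0107). Lengths of 14 and 15 residues were the most common, with 31.5% ± 4.25 and 25.7% ± 6.73 of merged TRBV19 clonotypes, against 24.8% and 20.9% elsewhere.

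At residue 5, the first after CASS, isoleucine stood in 35.8% ± 5.17 (SD, n = 12 mice) of merged TRBV19 clonotypes and in 0.405% of those of other V segments, and methionine in 7.95% against 0.278%. The TRBV19 start shown above ends in the first bases of an isoleucine or methionine codon. At residue 6 glycine was the most common (26.3% ± 5.31, and 24.2% elsewhere). Arginine stood there in 13.6% ± 3.51 against 7.88% ± 2.10, and lysine in 4.02% ± 5.65 against 0.792% ± 0.276, with up to 19.0% in a mouse. The D segment was called TRBD1 in 53.8% ± 10.0 of TRBV19 nucleotide sequences and in 38.9% ± 5.97 of the others. TRBD2 was called in 30.02% ± 9.47 and 36.6% ± 3.11. These D shares were counted over unmerged sequences of each tumor, so close variants of a large clonotype can count many times. These residue and D shares include the pattern clonotypes and were not tested.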

How the data were processed

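RNA of whole tumors was converted with a mouse TCR kit that adds molecular identifiers, and per the labels the authors processed the reads with Cogent NGS Immune Profiler 2.0. The deposited TCRβ tables give, per tumor, each CDR3 nucleotide sequence with its V, D and J segment and its read count, not normalised. The study's methods name an analysis based on molecular identifiers within that tool, but whether the listed read counts were taken after merging by identifier, and the genome build, are not given in the sources used here, so no coordinates are printed. The 24 TCRα tables were not used.

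Sequences without a stop mark and with a count of at least 2 were kept, which left 63291 to 887567 counts per tumor. Clonotypes were counted after thinning every library to 63291 counts (20 draws). For each TRBV segment, 1 value per mouse was compared with exact permutation tests (groups) or exact sign-flip permutation tests (tumor 2 minus tumor 1, or TRBV19 against the rest), two-sided, with Benjamini-Hochberg adjustment over all segments tested or all V and J pairs (called at 0.05). Each group is 3 separately numbered mice. Shares, J use, CDR3 length and the ratio of shares were averaged over the tumors of a mouse. J use was tested for V segments with a mean of at least 10 clonotypes, and the other measures for segments with a value in every mouse.

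Named clonotypes were the largest TRBV19 clonotype of each mouse, the 5 found in the most mice, and those with the largest excess in tumor 2 and in tumor 1 in each group. Named V segments were the 3 with the highest positive correlation with TRBV19 and its neighbours in the order of shares. TRBV13-1 and TRBV10 were added for their negative correlations after the values were seen. Named J segments were those called, and the most and least used, and TRBJ2-7 was added after its values were seen. The members, lists and the recurring pattern were chosen with earlier results of these data known. Alternatives were other count minimums, clonotypes by nucleotides, no thinning, summed tumors, log2 shares, edgeR on counts, leaving out the largest clonotype or each mouse, and, chosen after seeing the data, merging of sequences 1 nucleotide apart and leaving out copies of sequences with 10 times their count in another mouse. Tests were checked on simulated data. The tools were edgeR 4.0.16 in R 4.3.3, and scipy 1.17.1, pandas 2.3.3 and numpy 2.4.6 in Python 3.11.15. The symbol TRBV19 was matched to Trbv19, with the older name Tcrb-V6, in a RefSeq gene table.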

Additional observations from a re-analysis of the deposited data

Results flagged for a closer look

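The report used no sequence with a stop mark. TRBV19 also occurred among these, and it is given here as a signal outside the main measurement. Of the TRBV19 stop-marked counts, 54.8% were in sequences whose length is no multiple of 3, 5.07% in sequences with a stop codon in frame and 40.1% in sequences with an unread base. Of these last, 1310 of 1414 sequences (95.2% of their counts) matched a TRBV19 sequence used in the report, from the same tumor, at every base that was read, so they repeat the main measurement. In the time-matched tumors TRBV19 held between 0.365% and 5.14% of the stop-marked counts. It was above 5.14% in 10 of 18 time-separated tumors, highest at 36.6% (tumor 1) and 44.5% (tumor 2) of mouse 11. Mouse 3 had 14.9% and 13.6%, mouse 19 had 8.42% and 10.5%, and mouse 10 had 7.96% and 6.67%. Mice 4 and 7 were above it with tumor 1 alone, at 6.42% and 6.43%.

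Among sequences out of frame alone, TRBV19 held 0.282% to 2.03% of the counts in the time-matched tumors and more than 2.03% in 14 of 18 time-separated tumors, with 56.2% and 66.5% in mouse 11. In tumor 2 of mouse 3 it was 1.10%, within the time-matched range.

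In mouse 11 a single sequence of 41 bases with TRBJ2-5, whose length is not a multiple of 3, held 3866 and 2985 counts (25.3% and 36.2% of the stop-marked counts): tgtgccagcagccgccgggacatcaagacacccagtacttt. In tumor 2 of mouse 19 a sequence with TRBJ1-1 held 1212 counts (8.35%), and in tumor 1 of mouse 3 a sequence with TRBJ2-1 held 1197 counts (10.1%). Why these were high was not tested. A search for single tumors far from the others of their group, over 24 sets of values, found 0.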

How the results depend on the processing

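Leaving out a mouse aside, 106 of 108 values under the settings listed first and 34 of 36 under those chosen after seeing the data kept their direction and their side of the threshold. Among the former the number of J segments called for TRBV19 changed, at 2 (TRBJ2-5 and TRBJ2-7) with clonotypes by nucleotides and 0 with clonotypes weighted by counts, against 1. When sequences 1 nucleotide apart were merged, high-dose DAC minus untreated was 0.106 percentage points for the share of clonotypes, and the share of counts found in 1 tumor only differed by -0.0376 points between all time-separated and time-matched mice. Both were reversed, and neither passed before or after. Leaving out each mouse gave ranges of 0.25 to 0.33 residues for CDR3 length, 1 to 2 J segments called (2 without mouse 11, with TRBJ1-3, and without mouse 14 or 16, with TRBJ2-7), and -1.09 to -0.85 for the log2 ratio of shares. For the share found in 1 tumor only, the range was -7.19 to 12.6 points (untreated) and -12.4 to 7.42 points (all time-separated mice), reversed without mouse 12 in both and also without mouse 19 (-1.48) and mouse 20 (-3.30) in the latter. For high-dose DAC and the share of clonotypes it was -1.58 to 0.0443 points, reversed without mouse 16. The cause of these changes was not tested. The remaining comparisons kept their direction and did not pass, with the share of counts at 1.67 to 4.70 (untreated time-separated minus time-matched), 2.10 to 5.02 (all time-separated), 1.00 to 5.82 (low dose), -3.06 to -0.64 (high dose) and -2.42 to -0.0835 points (tumor 2 minus tumor 1). The share of clonotypes ranged over 0.393 to 1.76, 0.553 to 1.92, 0.426 to 2.65 and, for tumor 2 minus tumor 1, -1.63 to -0.375 points. The Morisita-Horn difference was -0.50 to -0.34 (untreated) and -0.38 to -0.23 (all time-separated), and that of the absolute log2 ratio 0.52 to 0.74. No paired analysis was possible because mouse numbers are not shared between groups, while tumors of a mouse were compared within it. In the exact permutation tests no comparison of 3 mice against 3 could pass, whereas edgeR could, and small clonotypes near 2 counts are not resolved at this depth.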
